A study of Mus musculus with 15 samples.

Results

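The opioid system of the hippocampus is described here through 7 genes: the peptide precursors Pdyn, Penk and Pnoc and the receptors Oprk1, Oprd1, Oprm1 and Oprl1. They were found by the RefSeq accession of each array probe, and 10 of 41174 probes belonged to them, among 19092 genes with a symbol on the array. Transcripts were measured in the whole hippocampus of both hemispheres of male C57BL/6 mice of about 2.5 months, with 1 single-colour array per sample. The 4 dflox controls carried floxed alleles of the glucocorticoid receptor gene (GR, Nr3c1) and of the mineralocorticoid receptor gene (MR, Nr3c2) and no Cre. The other groups carried Emx1-Cre with floxed GR (4 GREmx1-cre), floxed MR (4 MREmx1-cre) or both (3 GRMREmx1-cre). Emx1-Cre is active in the excitatory neuron lineage and in astrocytes of the dorsal forebrain, whereas GABAergic interneurons come from progenitors outside that domain. By the design as read here, dflox also differs from the single knockouts in which floxed alleles it carries. A group with Cre and no floxed allele was not analysed here, so Cre and receptor loss cannot be told apart against dflox.

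Opioid peptides are cut from larger precursors, stored in dense core vesicles and released on strong activity. Pdyn encodes prodynorphin, the source of the dynorphins, which prefer the kappa receptor (Oprk1). Penk encodes proenkephalin, whose enkephalins act on delta (Oprd1) and mu (Oprm1) receptors, and Pnoc encodes the precursor of nociceptin, the ligand of Oprl1. The receptors couple to inhibitory G proteins, which lower adenylyl cyclase activity, open inwardly rectifying potassium channels and close presynaptic calcium channels. In the hippocampus dynorphin is best known from the mossy fibres of dentate granule cells, where it dampens transmitter release, and enkephalin from mossy fibres, the perforant path and some interneurons.

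The upstream sequence of Pdyn is shown because Pdyn carries the largest rise among these genes. Another reason is that some of the regulators tested further on bind AP-1 sites or cAMP response elements, which were searched for here. RefSeq's promoter table (GRCm38.p6) held 2 start sites of Pdyn, both on the minus strand, and the 250 bases before each are given 5′ to 3′ as the gene reads. Capitals mark matches to TGACAAACA, the letters of the noncanonical AP-1 element of prodynorphin, and to CCAAT on either strand.

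Pdyn chr2:129699939-129700188: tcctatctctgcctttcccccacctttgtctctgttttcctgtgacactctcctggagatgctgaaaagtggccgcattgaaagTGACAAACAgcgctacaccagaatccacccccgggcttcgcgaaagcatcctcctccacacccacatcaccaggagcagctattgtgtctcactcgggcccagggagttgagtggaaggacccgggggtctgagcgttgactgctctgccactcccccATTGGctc

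Pdyn chr2:129698659-129698908: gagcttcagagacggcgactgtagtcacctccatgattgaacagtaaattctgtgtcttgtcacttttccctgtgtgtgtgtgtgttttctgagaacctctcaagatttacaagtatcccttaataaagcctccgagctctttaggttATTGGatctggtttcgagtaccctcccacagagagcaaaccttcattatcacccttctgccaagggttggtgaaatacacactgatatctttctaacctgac

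The first window held TGACAAACA 166 bases before the start and a reversed CCAAT 8 bases before it. The second held a reversed CCAAT 102 bases before its start and no TGACAAACA. Over all 32851 windows of this length, 0.274% held TGACAAACA and 33.8% held CCAAT, on either strand. Neither window held TGACG, the core of the cAMP response element (17.8% of all windows), the full element TGACGTCA (1.55%), the AP-1 site TGANTCA (6.75%) or AGAACA, the core bound by corticosteroid receptors (16.1%). TGACG lies within TGACGTCA, so every match to the latter is also one to the former. No match says only that these letters are not in these windows.

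Levels below are log2 intensities relative to the 75th percentile of the same array, which lay between 821 and 1027 intensity units, and differences are log2 fold changes ± SE from limma, with p-values adjusted (Benjamini-Hochberg) over 22871 genes and a threshold of 0.05. Probes of different genes were not set against each other, because brightness depends on the probe. Counts at an unadjusted p under 0.05 are given without the share of all genes at that cutoff, which was not counted. Nr3c1 stood at -2.24 in GREmx1-cre, 0.54 in MREmx1-cre and -1.64 in GRMREmx1-cre against dflox, each past the threshold, in the direction of the labels in both lines that lack GR. The brightest Nr3c2 probe stood at 0.42 in GREmx1-cre and -0.31 in GRMREmx1-cre, both past the threshold, and at -0.11 in MREmx1-cre (adjusted p = 0.48). In MREmx1-cre its 2 dimmer probes gave differences of -0.77 (adjusted p = 0.108 over all probes) and -0.38 (adjusted p = 0.269). The files do not say whether any of them lies in the deleted part, and a probe outside it checks nothing. The 4 slides held 1 genotype each, so a difference between slides and a difference between genotypes cannot be told apart. In whole tissue, fewer cells of a type and less RNA per cell cannot be told apart either.

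Prodynorphin mRNA rose in both lines without MR, and its mean was highest in the line without either receptor. The dflox arrays 1 to 4 stood at 2.03, 2.55, 2.25 and 2.18 (mean 2.25, SD 0.22, n = 4). GREmx1-cre stood at 2.76, 2.38, 2.56 and 2.33 (mean 2.51, SD 0.20, n = 4), MREmx1-cre at 3.02, 2.88, 2.93 and 3.30 (mean 3.03, SD 0.19, n = 4) and GRMREmx1-cre at 3.72, 3.60 and 3.15 (mean 3.49, SD 0.30, n = 3). Every array without MR lay above every array with MR, dflox and GREmx1-cre overlapped, and GRMREmx1-cre replicate 3 lay below the highest MREmx1-cre array. The share of all genes that split the arrays with MR from those without it was not counted. Between 1 group with MR and 1 without it, 13.9% to 29.8% of all genes did not overlap. Pdyn rose 1.72-fold in MREmx1-cre against dflox (0.78 ± 0.149, adjusted p = 0.00852) and 2.35-fold in GRMREmx1-cre (1.23 ± 0.161, adjusted p = 0.000356). Both rises passed the threshold on leaving out any of the 15 arrays, at 0.69 to 0.88 in MREmx1-cre and 1.12 to 1.41 in GRMREmx1-cre, but the call in MREmx1-cre was lost under normexp, another background correction (0.77, adjusted p = 0.129).

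Without GR alone, Pdyn stood 0.25 above dflox with a 95% interval from -0.07 to 0.57 (adjusted p = 0.392), an interval that includes 0. Between the 2 lines without GR, Pdyn was 1.98-fold higher in GRMREmx1-cre than in GREmx1-cre (0.98 ± 0.161, adjusted p = 0.00169). Between the 2 lines without MR, Pdyn was 0.46 higher in GRMREmx1-cre than in MREmx1-cre, interval 0.11 to 0.80, which did not pass after adjustment (adjusted p = 0.161). The direct difference of MREmx1-cre from GREmx1-cre was 0.53 ± 0.149 (adjusted p = 0.0439). That call was lost on leaving out any 1 of 10 arrays (dflox replicates 3 and 4, GREmx1-cre replicates 2, 3 and 4, all 4 MREmx1-cre replicates and GRMREmx1-cre replicate 2; 0.44 to 0.61 over all 15 omissions) with the replicate number as a block (adjusted p = 0.0694), under normexp (0.374), without a filter on dim probes (0.0677) and in a fit of these 2 groups alone (0.0561). The order of the means was thus dflox, GREmx1-cre, MREmx1-cre and GRMREmx1-cre, with only the middle step past the threshold, and that narrowly. The interaction, which asks whether joint loss differs from the sum of the single losses, was 0.20 with an interval from -0.27 to 0.68 (adjusted p = 0.69).

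Proenkephalin mRNA went the other way and was lower in both lines without MR. The brighter of its 2 probes stood at 3.11, 3.12, 2.86 and 3.04 in dflox (mean 3.03, SD 0.12, n = 4) and at 3.14, 3.37, 3.17 and 2.83 in GREmx1-cre (mean 3.13, SD 0.23, n = 4). It stood at 1.99, 2.65, 2.52 and 1.83 in MREmx1-cre (mean 2.25, SD 0.40, n = 4) and at 1.99, 1.76 and 2.28 in GRMREmx1-cre (mean 2.01, SD 0.26, n = 3). Every array without MR lay below every array with MR, again a split whose share over all genes was not counted. The MREmx1-cre arrays fell into a higher and a lower pair, replicates 2 and 3 against 1 and 4. Penk fell to 58.0% of its dflox level in MREmx1-cre (-0.78 ± 0.182, adjusted p = 0.0221) and to 49.2% in GRMREmx1-cre (-1.02 ± 0.196, adjusted p = 0.00384).

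**Figure D1:**
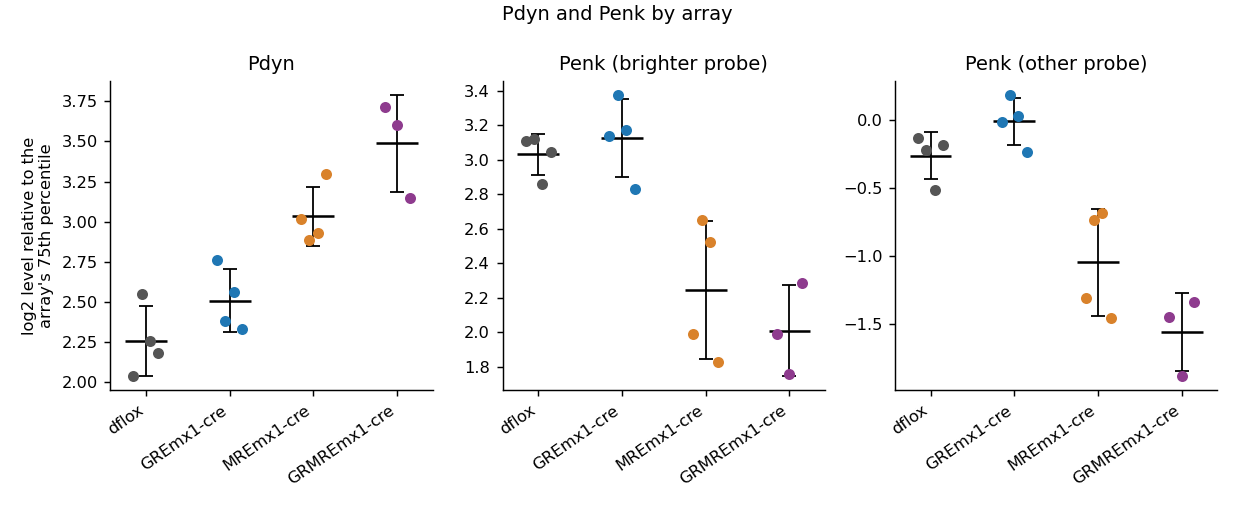
Log2 level of Pdyn (1 probe) and Penk (2 probes) on each of the 15 arrays, relative to the array's 75th percentile, by genotype (n = 4, 4, 4 and 3); points are arrays, long bars are group means and error bars 1 SD, and each panel has its own axis. Pdyn means run from 2.25 in dflox to 3.49 in GRMREmx1-cre, while both Penk probes are lower in the 7 arrays without MR than in the 8 with it.

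The second Penk probe also separated the arrays with MR from those without it, at a lower brightness. Its levels were -0.13, -0.22, -0.51 and -0.18 in dflox, -0.02, 0.18, 0.03 and -0.24 in GREmx1-cre, -1.31, -0.73, -0.68 and -1.45 in MREmx1-cre and -1.44, -1.88 and -1.34 in GRMREmx1-cre, again with no array without MR reaching those with it. It differed from dflox by -0.78 in MREmx1-cre (adjusted p = 0.0237) and by -1.29 in GRMREmx1-cre (adjusted p = 0.000966), here adjusted over all 30881 probes tested. On the brighter probe the call in MREmx1-cre was lost on leaving out MREmx1-cre replicates 1 or 4, or dflox replicates 1, 2 or 4 (-0.92 to -0.65 over all omissions, highest adjusted p 0.0605), and the value kept its sign throughout. It was also lost under normexp (adjusted p = 0.182) and in a fit of these 2 groups alone (0.0708). The call in GRMREmx1-cre held on leaving out any array (-1.16 to -0.90).

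In GREmx1-cre, Penk stood at 0.10 against dflox, interval -0.30 to 0.49 (adjusted p = 0.829). Against GREmx1-cre, Penk fell in GRMREmx1-cre to 46.1% (-1.12 ± 0.196, adjusted p = 0.00256) and was lower in MREmx1-cre (-0.88 ± 0.182, adjusted p = 0.00985; 0.0812 under normexp and 0.053 in a fit of these 2 groups alone). GRMREmx1-cre and MREmx1-cre differed by -0.24, interval -0.66 to 0.19 (adjusted p = 0.596), and the interaction was -0.33, interval -0.91 to 0.25 (adjusted p = 0.574). On the second probe these were -0.51 (unadjusted p = 0.0213, adjusted p = 0.212) and -0.76 (unadjusted p = 0.0133, adjusted p = 0.174), and did not pass either. For Penk, the levels formed a higher and a lower pair of genotypes, and within neither pair did the difference pass the threshold on either probe.

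**Figure D2:**
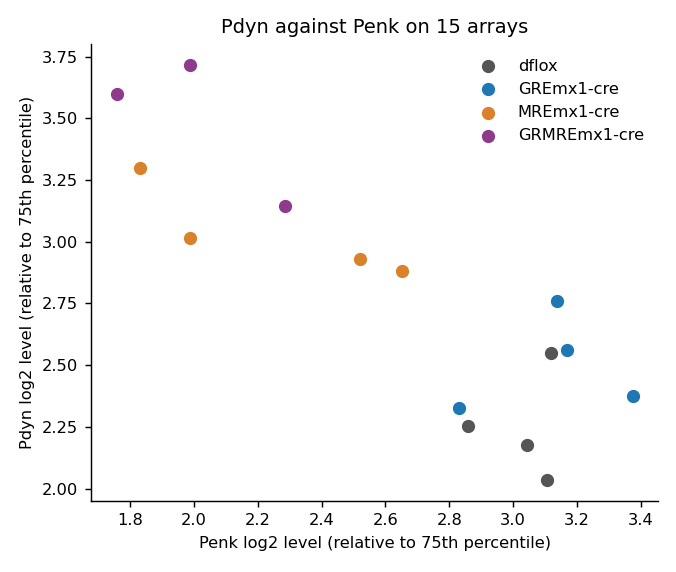
Log2 level of Pdyn (vertical axis) against Penk (horizontal axis, brighter probe) on the 15 arrays, coloured by genotype. The 8 arrays with MR lie at lower Pdyn and higher Penk, dflox and GREmx1-cre mixed among each other, and the 7 arrays without MR lie at higher Pdyn and lower Penk.

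Counted over the family on the brightest probe of each gene, Pdyn and Penk were the members past the threshold. They moved in opposite directions each time. Of the 5 members tested, 0 passed in GREmx1-cre against dflox (1 at an unadjusted p under 0.05, Pnoc), where limma called 3.15% of all genes. In MREmx1-cre against dflox 2 of 5 passed, beside 6.81% of all genes, and in GRMREmx1-cre 2 of 5, beside 16.2%. The same 2 genes passed in GRMREmx1-cre against GREmx1-cre (16.1% of all genes) and in MREmx1-cre against GREmx1-cre (9.33%). None of the 5 passed in GRMREmx1-cre against MREmx1-cre (2.98%; 2 at an unadjusted p under 0.05, Pdyn and Oprk1) or in the interaction (1.29%; 0 at an unadjusted p under 0.05). The median difference of the 5 from dflox was 0.034, -0.012 and -0.011 in GREmx1-cre, MREmx1-cre and GRMREmx1-cre, beside 0.021, 0.036 and 0.033 over all genes. The comparisons with dflox share the same 4 control arrays. The members were chosen with earlier results of these data known, so the shares of all genes give a scale and no excess was tested. Pdyn and Penk were also the members whose arrays did not overlap in MREmx1-cre against dflox (13.9% of all genes), GRMREmx1-cre against dflox (29.4%) and GRMREmx1-cre against GREmx1-cre (29.8%). In MREmx1-cre against GREmx1-cre 3 of 5 did not overlap, with Pnoc as the third (15.8%), and in GRMREmx1-cre against MREmx1-cre 0 of 5 (17.1%). The dimmer Oprl1 probe is outside these counts. On it GRMREmx1-cre lay above all other arrays and passed against dflox, GREmx1-cre and MREmx1-cre, as described below.

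**Figure D3:**
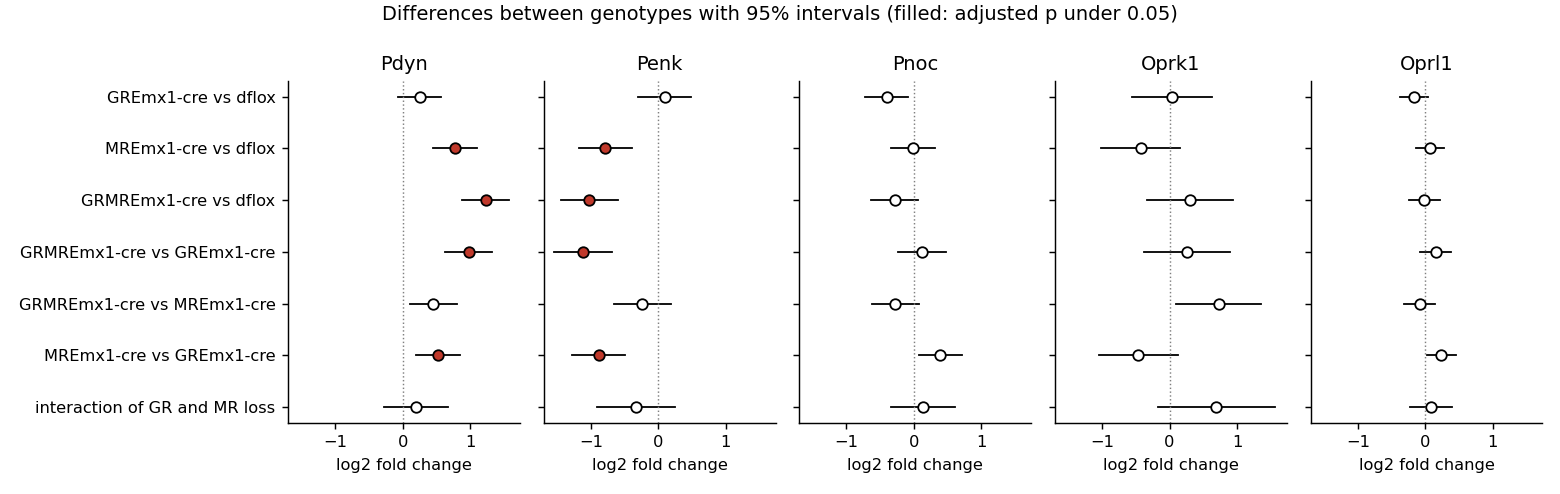
Log2 fold change of the 5 tested members (panels) in the 7 comparisons (rows), with 95% intervals from the limma fit; filled points have an adjusted p under 0.05. On the brightest probe of each gene, Pdyn and Penk are filled in the same 4 comparisons with opposite signs. No point of Pnoc, Oprk1 or Oprl1 is filled.

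Pnoc, the nociceptin precursor, did not pass in any comparison of the fit of all 15 arrays, and the lowest values of its brighter probe were on arrays of GREmx1-cre and GRMREmx1-cre. Its brighter probe stood at 0.53, 0.72, 1.23 and 0.78 in dflox, at 0.22, 0.48, 0.43 and 0.50 in GREmx1-cre, at 0.88, 0.93, 0.74 and 0.65 in MREmx1-cre and at 0.37, 0.35 and 0.87 in GRMREmx1-cre. The GREmx1-cre arrays all lay below the dflox arrays, as the arrays of 12.7% of all genes did not overlap in this comparison, while GRMREmx1-cre replicate 3 lay among the controls. The difference was -0.41 ± 0.149 in GREmx1-cre (interval -0.73 to -0.08, adjusted p = 0.163), -0.01 in MREmx1-cre (adjusted p = 0.977) and -0.29 in GRMREmx1-cre (adjusted p = 0.266). The second Pnoc probe gave -0.20, 0.07 and -0.25 in the same order, with overlapping groups each time, and did not pass either. Between MREmx1-cre and GREmx1-cre, whose arrays did not overlap on the brighter probe, the difference was 0.39 (adjusted p = 0.125), and a fit of these 2 groups alone called it (adjusted p = 0.0481).

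Among the receptors, the kappa receptor Oprk1 was dim but well above background on all 15 arrays. It stood at -4.63, -4.96, -4.20 and -4.94 in dflox, -4.25, -4.13, -4.98 and -5.23 in GREmx1-cre, -5.20, -5.35, -4.92 and -4.96 in MREmx1-cre and -4.95, -4.12 and -4.07 in GRMREmx1-cre. All groups overlapped with dflox, and the spread within GREmx1-cre (SD 0.54) exceeded every difference from dflox. Those differences were 0.03 (interval -0.56 to 0.62), -0.43 (-1.02 to 0.16) and 0.30 (-0.34 to 0.94) in GREmx1-cre, MREmx1-cre and GRMREmx1-cre. GRMREmx1-cre exceeded MREmx1-cre by 0.73 ± 0.294, which did not pass after adjustment (adjusted p = 0.223). Under normexp Oprk1 passed in GRMREmx1-cre against dflox (1.30, adjusted p = 0.014), GREmx1-cre (1.25, adjusted p = 0.0185) and MREmx1-cre (1.46, adjusted p = 0.0171), a setting that moved the median of all genes to 0.42 in GRMREmx1-cre against dflox.

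Oprl1, the nociceptin receptor, had 2 probes that disagreed. The brighter probe stood at 1.37, 1.15, 1.46 and 1.51 in dflox, 1.06, 1.41, 1.10 and 1.25 in GREmx1-cre, 1.41, 1.51, 1.32 and 1.53 in MREmx1-cre and 1.21, 1.38 and 1.49 in GRMREmx1-cre, with all groups overlapping. Its differences from dflox were -0.17, 0.07 and -0.01 (adjusted p = 0.388, 0.722 and 0.961). The dimmer probe stood at -2.72, -2.62, -2.78 and -2.76 in dflox, -2.75, -2.77, -2.55 and -2.65 in GREmx1-cre, -2.71, -2.51, -2.64 and -2.74 in MREmx1-cre and -2.32, -2.33 and -2.21 in GRMREmx1-cre. On it the 3 GRMREmx1-cre arrays lay above the other 12. That probe rose in GRMREmx1-cre against dflox (0.43, adjusted p = 0.00163), GREmx1-cre (0.40, adjusted p = 0.00309) and MREmx1-cre (0.36, adjusted p = 0.0198), adjusted over all probes. The files do not give the position of either probe in the transcript, so which of the 2 stands for Oprl1 is unknown here.

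**Figure D4:**
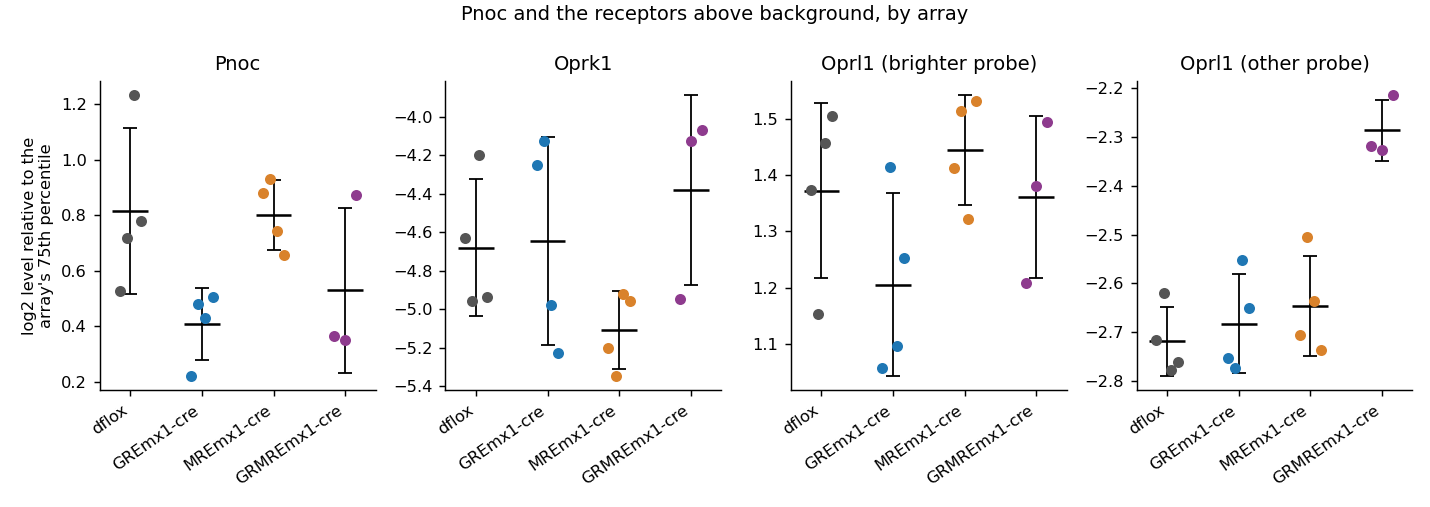
Log2 level of Pnoc (brighter probe), Oprk1 and both Oprl1 probes on each of the 15 arrays, relative to the array's 75th percentile, by genotype; points are arrays, long bars means and error bars 1 SD, and each panel has its own axis. The groups overlap for Oprk1 and the brighter Oprl1 probe, the GREmx1-cre arrays lie below dflox for Pnoc, and the 3 GRMREmx1-cre arrays lie above all others on the dimmer Oprl1 probe.

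The delta receptor Oprd1 and the mu receptor Oprm1 had 1 probe each, and neither was well above background on any of the 15 arrays. Oprd1 ran from -8.38 to -7.49 and Oprm1 from -8.47 to -6.68, below the lowest signal that counted as above background on the same arrays (-6.59 to -5.95). No fold change is given for them, and these data do not show whether they differ between genotypes. The enkephalin arm was therefore measured through its precursor alone, and the dynorphin and nociceptin arms through precursor and receptor.

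Pdyn stood against most of the listed markers of the cells it is best known from. This opposition was known from earlier results of these data when the members and lists were chosen, so it is described here and not tested. Of 20 dentate granule cell markers, all tested, 9 fell and 2 rose in MREmx1-cre against dflox (median -0.42) and 13 fell and 1 rose in GRMREmx1-cre (median -0.55). Over all genes, 6.81% and 16.2% were called in these comparisons. Of these dentate calls, 8 of 11 in MREmx1-cre and 8 of 14 in GRMREmx1-cre held in every omission of an array. The desmosomal protein gene Dsp fell to 18.0% of dflox in MREmx1-cre (-2.48 ± 0.133, adjusted p = 3.15e-06) and to 12.4% in GRMREmx1-cre (-3.02 ± 0.144, adjusted p = 7.23e-07). Calb1, the calcium buffer calbindin, fell to 38.2% and 34.6%. Sema5a, a semaphorin (-0.64 and -0.75), Pdzd2 (-0.89 and -0.91), Maml2, a Notch coactivator (-0.63 and -0.71), and Npnt, an integrin ligand (-1.10 and -1.68), fell in both lines. Normexp kept 3 of the 11 dentate calls in MREmx1-cre and 8 of the 14 in GRMREmx1-cre. In GRMREmx1-cre it turned 4 to the other sign, Npnt (0.92), Maml2 (0.25), Tdo2 (0.49) and Fam163b (0.96, adjusted p = 0.0323, a call in the opposite direction), the last 2 named after their values were seen. Normexp also moved the median of all genes to 0.42 in that comparison, and Maml2 lay below this median.

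Rasl10a, a small GTPase gene, was the dentate marker that rose in both lines (0.57 and 0.41), the second of these calls being lost without GRMREmx1-cre replicate 2. C1ql3, a synaptic C1q-like protein gene, rose in MREmx1-cre (0.28, adjusted p = 0.037), a call lost on leaving out any of 6 arrays (0.22 to 0.32). The transcription factor gene Prox1, which specifies granule cells, stood at 0.14 in MREmx1-cre (adjusted p = 0.617) and 0.00 in GRMREmx1-cre (adjusted p = 0.989). It falls outside the naming rule and was added after its value was seen. The mean of the 20 markers, each relative to its own mean over all arrays, lay between 0.03 and 0.40 in dflox and between 0.20 and 0.47 in GREmx1-cre. It lay between -0.26 and -0.17 in MREmx1-cre and between -0.55 and -0.34 in GRMREmx1-cre. The 2 genotypes with the lowest marker means were the 2 with the highest Pdyn, and the part of the one in the other was not tested.

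Markers of other cells and regions that express these peptides were set beside the rise of Pdyn and the fall of Penk. Against dflox, 6.81% of all genes were called in MREmx1-cre and 16.2% in GRMREmx1-cre. Of 18 tested GABAergic interneuron markers, 3 rose and 0 fell in MREmx1-cre (5 at an unadjusted p under 0.05) and 1 rose in GRMREmx1-cre. These were Nos1, the neuronal nitric oxide synthase (0.61 and 0.73), the peptide gene Cort (1.09 in MREmx1-cre) and Crhbp, a binding protein of corticotropin-releasing hormone (0.45, lost on leaving out any of 4 arrays). The summed intensity of the interneuron markers, in units of the array's 75th percentile, was 81.0 to 103 for dflox, 78.0 to 87.3 for GREmx1-cre, 86.4 to 96.3 for MREmx1-cre and 80.5 to 86.4 for GRMREmx1-cre, so that the groups without MR overlapped with dflox.

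The striatum, which lies near the hippocampus and is rich in Pdyn and Penk, had 15 listed markers, 12 of them tested, and all 12 were well above background on the 4 dflox arrays. Their summed intensity was 5.44 to 7.12 for dflox, 5.49 to 6.76 for GREmx1-cre, 7.95 to 9.32 for MREmx1-cre and 8.50 to 9.42 for GRMREmx1-cre. That sum, in which brighter markers weigh more, moved with Pdyn and against Penk. The mean of the 12, each relative to its own mean over all arrays, overlapped between all groups. It was -0.24 to 0.19 in dflox, -0.34 to 0.07 in GREmx1-cre, -0.09 to 0.39 in MREmx1-cre and -0.07 to 0.17 in GRMREmx1-cre. In MREmx1-cre, where 6.81% of all genes were called, 2 rose, the retinoid receptor gene Rxrg (1.21) and the signalling regulator Rgs9 (0.77). In GRMREmx1-cre, where 16.2% of all genes were called, 4 rose, Rxrg (1.23), Rgs9 (0.74), the retinoic acid receptor gene Rarb (0.46) and the adenosine receptor gene Adora2a (0.37). The dopamine receptor genes Drd1 (0.08 and 0.23) and Drd2 (-0.09 and 0.10) and the dopamine-regulated phosphoprotein gene Ppp1r1b (-0.09 and -0.48), named after their values were seen, did not pass in either line. The part of striatal RNA in the Pdyn and Penk differences was not tested. Of 13 tested thalamus and habenula markers 3 rose in MREmx1-cre and 4 in GRMREmx1-cre, among them Nwd2 (0.50 and 0.72) and Plekhg1 (0.45, lost on leaving out any of 5 arrays, and 0.72), with sums of 9.54 to 10.7 in dflox, 8.97 to 12.7 in GREmx1-cre, 10.1 to 11.4 in MREmx1-cre and 10.2 to 12.1 in GRMREmx1-cre. Gbx2, Chrnb3 and Chrnb4 of that list were below background on too many arrays to be tested.

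Pyramidal and glial lists give the setting, with counts to be read beside the calls over all genes (3.15% in GREmx1-cre, 6.81% in MREmx1-cre and 16.2% in GRMREmx1-cre). Of 6 CA2 markers 4 fell in both lines without MR, among them Pcp4 (-0.35 and -0.36) and Amigo2 (-1.31 and -1.19; 0.01 in GRMREmx1-cre after normexp). Of 5 CA1 markers 1 rose and 1 fell in MREmx1-cre, Wfs1 (0.65) and Spink8 (-2.19), and 1 rose and 2 fell in GRMREmx1-cre, Wfs1 (0.54), Spink8 (-3.61) and Fibcd1 (-0.32, lost on leaving out any of 4 arrays). Of 7 tested CA3 markers 2 fell in both lines, Homer3 (-0.91 and -1.02) and Grik4 (-0.41, and -0.26, lost on leaving out any of 5 arrays), while Homer3 rose in GREmx1-cre (0.60, adjusted p = 0.018, lost without GREmx1-cre replicate 3 or 4). Of 12 microglia markers 5 rose in MREmx1-cre and 9 in GRMREmx1-cre, among them Fcrls (0.59 and 0.66) and Trem2 (0.29, lost on leaving out any of 4 arrays, and 0.51). Of 9 astrocyte markers 2 rose in MREmx1-cre and 4 rose and 1 fell in GRMREmx1-cre, S100b rising in both (0.24, lost on leaving out any of 9 arrays, and 0.34, which was -0.05 under normexp). The marker that fell was the connexin gene Gjb6 (-0.57, adjusted p = 0.0079), a call that held on leaving out any array. In GREmx1-cre 2 astrocyte markers rose and 1 fell, again Gjb6 (-0.54, lost on leaving out any of 5 arrays). Of 7 neocortex and 7 tested hypothalamus markers, 1 each passed in GRMREmx1-cre, Rprm (-0.33, lost on leaving out any of 3 arrays) and Hcrt (0.55). Of 10 choroid plexus and 7 myelin markers, 0 passed in any comparison with dflox (at an unadjusted p under 0.05, 0 choroid plexus markers, and 1, 1 and 0 myelin markers). MREmx1-cre replicate 2 stood apart on the choroid plexus markers, with a summed intensity of 2.13 beside 27.9 to 86.7 on the other 14 arrays. Without that array Pdyn in MREmx1-cre was 0.83 (adjusted p = 0.0154) and Penk -0.92 (adjusted p = 0.0131) against dflox, both past the threshold.

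The machinery around the peptides had calls in both directions, at shares to be read beside those of all genes (3.15% in GREmx1-cre, 6.81% in MREmx1-cre, 16.2% in GRMREmx1-cre). These shares are at the adjusted threshold and give no scale for the counts at an unadjusted p. In MREmx1-cre normexp kept 0 of the calls in the 5 lists that follow. Of 10 genes of precursor processing and dense core vesicles, all tested, 2 fell in MREmx1-cre, the granin Chgb (-0.36 ± 0.066, adjusted p = 0.00627) and Scg5, the chaperone of the convertase Pcsk2 (-0.39 ± 0.083, adjusted p = 0.0149). In GRMREmx1-cre Chgb fell again (-0.46, adjusted p = 0.00111), while Pcsk2, a convertase that cuts prodynorphin, rose (0.34 ± 0.0641, adjusted p = 0.00362), as did the granin-family gene Scg3 (0.23, lost on leaving out any of 4 arrays and -0.10 under normexp). The calls of Chgb, Scg5 and Pcsk2 held on leaving out any array. In GREmx1-cre 0 of 10 passed, with 2 at an unadjusted p under 0.05.

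Of 12 peptidase genes that cut or could cut opioid peptides, 2 rose and 1 fell in MREmx1-cre, namely Ece1 (0.20), Prep (0.16) and Ece2 (-0.22). In GRMREmx1-cre Mmel1, a relative of neprilysin, rose (0.79) and Ece2 fell (-0.25), 2 of 12 and so near the share of all genes, and in GREmx1-cre Thop1 rose (0.26, adjusted p = 0.0497). None of these 6 calls held in every omission of an array; Thop1 lost its call in 13 of 15 omissions and Prep in 14.

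Of 29 genes of receptor signalling and trafficking, 2 rose and 1 fell in MREmx1-cre and 4 rose and 1 fell in GRMREmx1-cre. The 5 of 29 in GRMREmx1-cre are near the share of all genes. Adcy1, a calcium-stimulated adenylyl cyclase, fell to 63.0% in MREmx1-cre (-0.67 ± 0.176, adjusted p = 0.0408; lost on leaving out any of 9 arrays, -0.83 to -0.52) and to 50.8% in GRMREmx1-cre (-0.98 ± 0.19, adjusted p = 0.00419). Another such cyclase, Adcy8, rose in GRMREmx1-cre (0.48 ± 0.11, adjusted p = 0.00984). Kcnj9, a subunit of the potassium channels that these receptors open, rose in both lines (0.40 and 0.35). Arrb1, the beta-arrestin 1 gene, rose in MREmx1-cre (0.34 ± 0.0527, adjusted p = 0.00246) and stood at 0.06 in GRMREmx1-cre. The interaction for Arrb1 was -0.36 (adjusted p = 0.0466), a call lost on leaving out any of 14 arrays. In GREmx1-cre 0 of 29 passed, with 5 at an unadjusted p under 0.05.

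Of 13 transcription factors linked to Pdyn and Penk, 3 fell in MREmx1-cre and 1 in GRMREmx1-cre. Jun, a part of AP-1, fell in both (-0.46 ± 0.0849, adjusted p = 0.00671, and -0.44 ± 0.0917, adjusted p = 0.00635), and these calls held on leaving out any array. Fosb (-0.71) and Fosl2 (-0.57), partners of Jun, fell in MREmx1-cre, calls lost on leaving out any of 6 and any of 5 arrays. In GREmx1-cre 0 of 13 passed, with 4 at an unadjusted p under 0.05. Whether these factors bear on the TGACAAACA match upstream of Pdyn was not tested.

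Of 6 tested opioid-related genes outside the family, Ogfrl1, named for its likeness to the opioid growth factor receptor, fell in MREmx1-cre (-0.33) and in GRMREmx1-cre (-0.22, lost on leaving out any of 4 arrays). In GRMREmx1-cre Npff, the precursor of an opioid-modulating peptide, rose (0.36 ± 0.0613, adjusted p = 0.00191), as did Pomc, the precursor of beta-endorphin (0.25, lost without GRMREmx1-cre replicate 2 or 3).

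**Figure D5:**
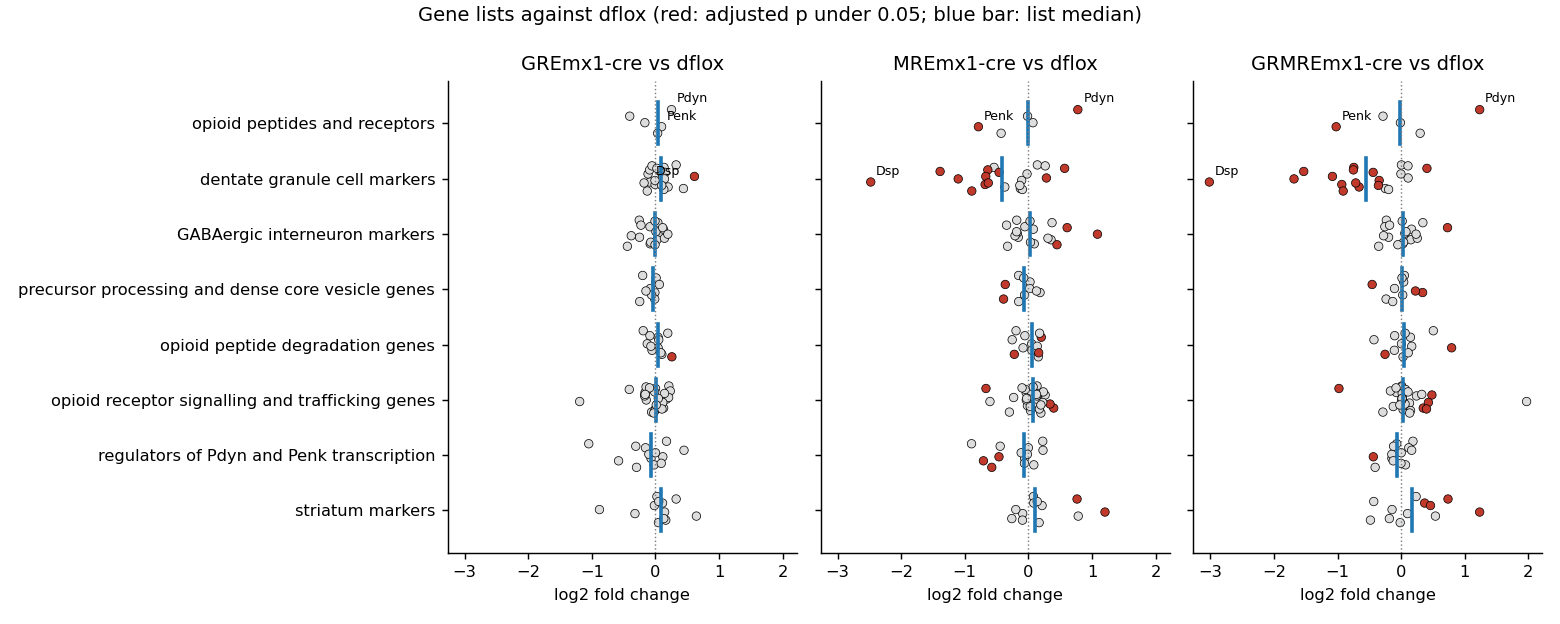
Log2 fold change against dflox of every tested gene of 8 lists (rows) in GREmx1-cre, MREmx1-cre and GRMREmx1-cre (panels); red points have an adjusted p under 0.05, blue bars are list medians, and vertical scatter within a row is for legibility. Pdyn lies at 0.78 and 1.23 in the lines without MR, where the dentate granule cell medians lie at -0.42 and -0.55 and Dsp at -2.48 and -3.02.

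The genes most like each member across the 15 arrays were found by Pearson correlation among 14338 other genes well above background on all arrays. These values describe 15 points that share 4 genotypes, so that genes differing between genotypes correlate for that reason too, and no p is given. Closest to Pdyn were Klk7 (0.935), Lrrn3 (0.935) and Dcc (0.931), and most opposed Stard13 (-0.932), Rnf19a (-0.922) and Ankrd29 (-0.921). Closest to Penk were Arsj (0.95), Elmo2 (0.938) and Arpc2 (0.935). Closest to Pnoc were Fam210a (0.906), Rnf103 (0.905) and Glra2 (0.889), and to Oprl1 Dgcr8 (0.928), Ppp2r2b (0.89) and Fndc3a (0.883). Oprk1 had no neighbour as close, the nearest being Psapl1 (0.745), Ifi204 (0.73) and 6720489N17Rik (0.729).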

How the data were processed

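Per the labels, total RNA was labelled with Cy3. The submitters' processing notes name Agilent Feature Extraction 12.0 for the scanner files. Their spot intensity was already background-corrected, per the file headers, and flags (other values, 0 or 1) mark spots above background and outliers. The authors' deposited table held the same intensity at 45018 of 45018 spots on every array. Here log2 intensities were scaled to each array's 75th percentile, 1281 outlier spots were left out and spots of a probe were averaged. Probes were named by accession through RefSeq (28215 of 41174 had a symbol). Testing took the 30881 probes that were above background on 3 or more arrays, using the brightest per gene. All 15 arrays (0.9777 to 0.9924 correlated) were fitted together by limma 3.58.1 under R 4.3.3, with 1 mean per genotype, eBayes and Benjamini-Hochberg adjustment, which was tested on simulated data. The number of arrays limits precision, and nothing but the labels says that the samples are separate mice. Figures used matplotlib 3.10.9 (Python 3.11.15).

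The members and lists were chosen with earlier results of these data known. Named were the members, Nr3c1, Nr3c2, the 3 genes most like each member (for Pdyn also the 3 most opposed), and from each list up to 4 genes past the threshold with the smallest adjusted p against dflox (8 for dentate markers), with others named where a count was small. A gene that this rule names is not reported here. Alternatives changed scaling, background correction, filters, probe choice, samples, variance model and the replicate block, and left out each array. Normexp (offset 50) used median signals, since the files hold no mean signal column.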

Additional observations from a re-analysis of the deposited data

Results flagged for a closer look

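Of 30 sets of 4 arrays, each a member's probe in 1 genotype, 2 held an array far from the other 3, and chance gives about 1 in 20. Both concern Oprm1, whose probe was not well above background on any array. In dflox, replicate 4 stood at a log2 level of -6.68, while the others ran from -8.27 to -8.03. In MREmx1-cre, replicate 1 stood at -7.41, while the others ran from -8.47 to -8.31.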

How the results depend on the processing

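For single members, 893 of 926 recomputed differences kept their direction and their side of the threshold. Pdyn and Penk in GRMREmx1-cre kept their calls against dflox and against GREmx1-cre under every alternative run. Normexp background correction left 0 members called in MREmx1-cre against dflox (Pdyn 0.77, adjusted p = 0.129; Penk -0.80, adjusted p = 0.182) and 0 in MREmx1-cre against GREmx1-cre, and it called 1, Oprk1 (1.46), in GRMREmx1-cre against MREmx1-cre, and Oprk1 also against dflox (1.30) and GREmx1-cre (1.25). It moved the median of all genes to 0.42 in GRMREmx1-cre against dflox and called 14139 genes there, beside 3716 in the fit reported, and 100 beside 1557 in MREmx1-cre; other scalings kept medians within 0.1. Fitting only the groups compared left 1 member in MREmx1-cre against dflox (Pdyn; Penk -0.78, adjusted p = 0.0708) and called 1 in MREmx1-cre against GREmx1-cre, which was Pnoc (0.39, adjusted p = 0.0481), while Pdyn (0.0561) and Penk (0.053) lost their calls. Without a filter on dim probes that last comparison had 1 (Penk). Oprl1 in GRMREmx1-cre turned to 0.21 against dflox with the mean of its probes, and to 0.43 against dflox and 0.36 against MREmx1-cre on its dimmer probe. Leaving out 1 array at a time gave 1 to 2 members in MREmx1-cre against dflox and 1 to 2 in MREmx1-cre against GREmx1-cre, with Penk at -0.92 to -0.65 in the former. Median scaling changed the split of all calls in GRMREmx1-cre against dflox, from 2610 rises among 3716 to 1539 among 3251. Same-numbered arrays correlated at -0.03 to 0.20 in their deviations from group means (other pairs -0.15 to 0.11). Averaged over the other groups' arrays of each number, each of the 15 correlated best with its own number. Single pairs did not all do so, as dflox replicate 3 was closest to MREmx1-cre replicate 1 (0.113). On all 15 arrays the replicate number is also the position on the slide, and the labels do not tie it to a litter or batch. The replicate block left 1 member called in MREmx1-cre against GREmx1-cre, which was Penk, while Pdyn lost its call (0.53, adjusted p = 0.0694). It changed no other member's call, and 1827 genes were called in MREmx1-cre against dflox with it.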
